A study of Mus musculus with 9 samples.

Results

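Complement and complement regulator genes were followed in hypothalamic RNA of WT mice and Clic1 KO mice. The 8 genes, chosen by name, were Cd59a, Cd55, C1qa, C1qb, C1qc, C3, C4b and Serping1, all of them among the 14351 genes with values. Cd59a was included because it was higher in KO mice in these libraries, and C4b because it lies in the major histocompatibility complex (MHC), where Clic1 also lies. The question was how far complement RNA differed between hypothalami with and without Clic1, a gene for a chloride intracellular channel protein.

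RNA was sequenced from male mice on normal chow, 1 library per mouse, with 5 KO libraries (replicates 2, 4, 6, 8 and 10) and 4 WT libraries (replicates 1, 3, 9 and 11). The KO mice lack Clic1 in the whole body and the WT mice were littermates, so a difference cannot be assigned to a cell type or to the hypothalamus itself. The labels give the strain as C57b/6J and a protocol for frozen perigonadal fat, whereas the study's methods describe a CD-1 background, and the tissue label is hypothalamus. All 13 hypothalamic neuron markers had values, led by Pmch and Avp. Their summed level was 736 to 893 CPM (the authors' counts scaled to library size) over the KO libraries and 667 to 718 CPM over the WT libraries, without overlap. Of the single markers, Avp alone had groups that did not overlap, which held for 3.41% of all genes. Whether this difference bears on the other genes was not tested. KO replicate 10 carries WT in both its title and its treatment label, while its description and the name of its column of values mark it as a KO library. It was placed with the KO mice by its description and column name. Its Clic1 level of 1.43 CPM lay within the 0.733 to 1.93 CPM of the other KO libraries and below the 3.58 to 5.52 CPM of the WT libraries. Fold changes of the 8 genes were also computed without this library and with it as WT, and 1 or both are given for each gene. KO replicate 10 was the deepest library, at an estimated 20.8 M reads against 5.45 to 10.97 M in the others. Its median rank correlation with the other libraries across genes was 0.974, against 0.990 to 0.993 for the rest.

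Complement is a cascade of plasma and tissue proteins that tags surfaces for removal and can end in a pore through the membrane. The classical pathway starts when C1q, built from the A, B and C chains encoded by C1qa, C1qb and C1qc, binds a surface and activates the proteases C1r and C1s, which cleave C4 and C2 to form the enzyme that cleaves C3. Host cells are shielded by regulators, of which Serping1 encodes the C1 inhibitor, Cd55 the factor that takes C3-cleaving enzymes apart, and Cd59a the surface protein that stops the pore from assembling. In the brain, microglia are the main source of C1q, and C1q and C3 take part in the removal of synapses during development.

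Cd59a, included for its difference, is the 1 of the 8 genes past the threshold used here, an adjusted p of 0.05 in limma with Benjamini-Hochberg adjustment over all genes. Its pass was fixed by that choice and is no result about the 8 genes. Across all genes 0.286% passed, 0.139% with a higher and 0.146% with a lower level in KO mice. The other 7 genes had adjusted p between 0.835 and 0.955 in limma, and for each of them the KO and WT libraries overlapped, as they did for all but 3.41% of all genes. Two-sided exact permutation tests of these 7 genes gave p from 0.222 to 0.762, and 5 against 4 libraries cannot give less than 0.0159. Their log2 fold changes ran from -0.27 to 0.21, with 2 above 0 and 5 below, against 7229 above and 7122 below over all genes. The median log2 fold change of all 8 members was -0.09, and the median over all genes was 0.00089. Fold changes are on the log2(CPM + 0.1) scale, KO over WT. In bulk tissue, fewer cells of a type and less RNA per cell cannot be told apart.

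**Figure D1:**
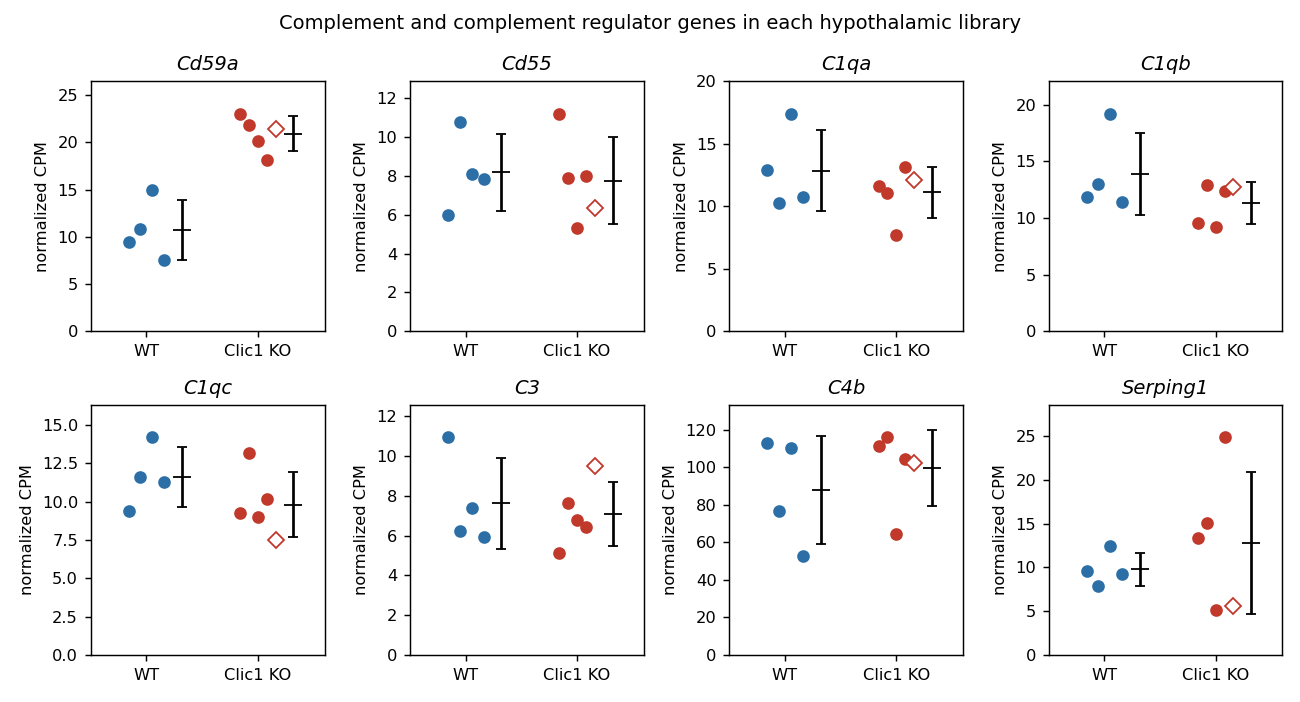
Normalized CPM of each gene in each library, with WT libraries in blue, Clic1 KO libraries in red and KO replicate 10 as an open diamond, and the group mean with 1 SD in black. The Cd59a panel is the one in which the groups are apart, with KO values of 18.1 to 23.1 CPM above the WT values of 7.58 to 15.0 CPM.

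Cd59a (ENSMUSG00000032679) is a plus-strand gene of chromosome 2, at 104095801 to 104115354 of GRCm38, the build of all positions given here. Its level was 23.1, 21.9, 20.1, 18.1 and 21.5 CPM in KO replicates 2, 4, 6, 8 and 10, and 9.41, 10.9, 15.0 and 7.58 CPM in WT replicates 1, 3, 9 and 11. The lowest KO library was above the highest WT library, and the KO libraries lay closer together, with a coefficient of variation of 8.96% against 29.5% in WT mice. The means were 20.9 ± 1.88 CPM (SD, n = 5) and 10.7 ± 3.16 CPM (SD, n = 4), which differ by 1.0 on the log2 scale (standard error 0.17). These values chose the gene and are given without a test.

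The difference at Cd59a had nearly the same size without KO replicate 10, at a log2 fold change of 0.99, and was 0.78 with that library as WT. Over the 9 fits that each dropped a mouse it was 0.85 to 1.17, and Cd59a was past the threshold in 2 of these fits. The longest transcript of Cd59b, the second mouse Cd59 gene, matched that of Cd59a at 83.2% identity over 739 nt. Cd59b was not among the genes with values, so reads divided between the genes could not be followed.

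The same Cd59a values are also given relative to markers of cell types that could carry the gene, as a description and not as a further observation. Cd59a was 6.83% to 8.85% of the summed endothelium markers in KO libraries, against 3.37% to 6.22% in WT. As a share of the oligodendrocyte markers it was 0.457% to 0.593% in KO and 0.16% to 0.354% in WT libraries, and as a share of the astrocyte markers 0.326% to 0.420% and 0.150% to 0.274%. The endothelium markers themselves summed to 221 to 241 CPM over the WT libraries and 235 to 266 CPM over the KO libraries, and 7 of 10 had a higher mean in KO mice. The oligodendrocyte markers summed to 3853 to 4727 CPM in WT and 3618 to 4101 CPM in KO libraries. Of these 9 markers, 1 had a higher mean in KO mice. For the astrocyte markers the sums were 5048 to 5578 CPM in WT and 5362 to 5726 CPM in KO libraries, with 5 of 9 higher in KO mice. The part of cell content in the Cd59a difference was not tested. Relative to Cd55, the other membrane regulator among the 8 genes, Cd59a was 2.06 to 3.79 times as high in CPM in KO and 0.965 to 1.85 times as high in WT libraries.

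Within the groups, Cd59a varied most like Wee1, Ifnar2 and 1110059G10Rik, with Pearson r of 0.95, 0.92 and 0.91 over the 9 libraries after the group means were taken out. The search covered 12071 genes, those averaging 5 CPM or more. None of the 3 was past the threshold between KO and WT mice, and Wee1, a kinase of the cell cycle, differed by 0.01 on the log2 scale (standard error 0.11). With the summed markers used above, Cd59a had r = 0.34 for endothelium, 0.61 for astrocytes and -0.26 for oligodendrocytes (n = 9). Over the marker lists its r was highest with the microglia sum, at 0.70, and next with the ependymal cell sum, at 0.66. The 9 points share the scaling of their libraries, so these r are descriptions.

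The promoter of Cd59a is shown because it belongs to the gene whose groups were apart. It is the 250 bases before the RefSeq start on GRCm38.p6, chr2:104095551-104095800, plus strand. Capitals mark matches on either strand to TATAAA (the TATA box), GGGCGG (the GC box) or GAGGAA (a core bound by the myeloid factor PU.1), none of which overlaps another here.
Cd59a: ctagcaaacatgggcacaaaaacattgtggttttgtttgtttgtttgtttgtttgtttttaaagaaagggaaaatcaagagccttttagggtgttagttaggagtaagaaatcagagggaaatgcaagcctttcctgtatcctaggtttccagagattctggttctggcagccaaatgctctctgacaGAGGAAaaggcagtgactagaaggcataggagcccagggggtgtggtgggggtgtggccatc
The GAGGAA match lay at -62 to -57 from the start. Of 32851 mouse promoter windows of that length, 23.3% held GAGGAA, 32.7% GGGCGG and 12.4% TATAAA, so a match is common. RefSeq promoters were found for 5 of the 8 genes, and the pair shown further on belong to C1q.

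Cd55 (ENSMUSG00000026399, chromosome 1, minus strand, 130439027 to 130462744) encodes the decay-accelerating factor. Its level was 11.2, 7.91, 5.31, 7.98 and 6.33 CPM in KO replicates 2, 4, 6, 8 and 10, and 5.97, 10.8, 8.10 and 7.85 CPM in WT replicates 1, 3, 9 and 11. The highest and the lowest of the 9 libraries were both KO libraries. The means were 7.75 ± 2.23 CPM (SD, n = 5) for KO and 8.17 ± 1.98 CPM (SD, n = 4) for WT, a log2 fold change of -0.09 (standard error 0.22). The sign was not stable, at -0.03 without KO replicate 10 and 0.04 with it as WT, 0.03 without KO replicate 6 and 0.05 without WT replicate 3. Cd55b, whose transcript matched that of Cd55 at 91.6% identity over 1157 nt, was not among the genes with values.

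The C1q chains did not pass the threshold, and all 3 had lower means in KO mice. C1qa (ENSMUSG00000036887) was at 11.6, 11.1, 7.69, 13.1 and 12.1 CPM in KO replicates 2, 4, 6, 8 and 10, and at 12.9, 10.3, 17.4 and 10.7 CPM in WT replicates 1, 3, 9 and 11. WT replicate 9 was the highest library and KO replicate 6 the lowest, and the other 7 lay between 10.3 and 13.1 CPM. The means were 11.1 ± 2.06 CPM (SD, n = 5) and 12.8 ± 3.26 CPM (SD, n = 4), a log2 fold change of -0.20 (standard error 0.19).

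C1qb (ENSMUSG00000036905) was at 9.53, 12.9, 9.16, 12.4 and 12.8 CPM in the KO and 11.8, 12.95, 19.2 and 11.4 CPM in the WT libraries, in the same order. The log2 fold change was -0.27 (standard error 0.17), from 11.3 ± 1.84 CPM (SD, n = 5) and 13.9 ± 3.62 CPM (SD, n = 4). C1qc (ENSMUSG00000036896) was at 9.27, 13.2, 8.97, 10.2 and 7.47 CPM in the KO and 9.41, 11.6, 14.2 and 11.3 CPM in the WT libraries. WT replicate 9 was the highest library for all 3 chains. For C1qc the log2 fold change was -0.25 (standard error 0.17), from 9.81 ± 2.12 CPM (SD, n = 5) and 11.6 ± 1.97 CPM (SD, n = 4). With replicate 10 as WT the log2 fold changes of C1qa, C1qb and C1qc were -0.22, -0.30 and -0.04. Without WT replicate 9 they were -0.04, -0.10 and -0.15, and C1qa was at -0.07 without KO replicate 6.

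The C1q level varied with the summed microglia markers of each library. All 15 microglia markers, Csf1r among them, had values, none was past the threshold, and 5 had a higher mean in KO mice. Their summed level spanned 305 to 368 CPM over the KO libraries and 337 to 414 CPM over the WT libraries, with KO replicate 6 the lowest and WT replicate 9 the highest, as for the C1q sum. After the group means were taken out, the marker sum had r = 0.85 with C1qa, 0.88 with C1qb and 0.67 with C1qc over the 9 libraries, and 0.87, 0.93 and 0.78 without KO replicate 10 (n = 8). The C1q sum was 32.3 ± 4.49 CPM (SD, n = 5) for KO and 38.3 ± 8.34 CPM (SD, n = 4) for WT, or 9.47% ± 0.762 (SD, n = 5) and 10.5% ± 1.20 (SD, n = 4) of the microglia markers. The ranges of this share, 8.46% to 10.2% and 9.70% to 12.3%, overlapped. Perivascular macrophages also make C1q, and the 3 of their 7 markers with values summed to 6.59 to 16.0 CPM over the KO and 5.79 to 10.6 CPM over the WT libraries. The part of either cell type in the C1q difference was not tested.

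C1qa, C1qc and C1qb lie beside each other on the minus strand of chromosome 4, from 136895917 to 136898803, 136889804 to 136893065 and 136880129 to 136886187. Across libraries r was 0.77 between C1qa and C1qb, 0.52 between C1qb and C1qc and 0.25 between C1qa and C1qc (n = 9). Without KO replicate 10, where C1qc was lowest of all libraries and C1qb was not, r was 0.84 between C1qb and C1qc (n = 8). C1qa varied most like Dnajb1, Itm2a and Lamb2, each with r = 0.97, and it also had r = 0.97 with the summed endothelium markers. C1qa thus moved with several kinds of RNA at once, and its r with the microglia sum is not particular to microglia.

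The promoters of C1qb and C1qc, neighbouring subunit genes that varied together outside KO replicate 10, are shown with the same motifs in capitals. Both are on the minus strand of chromosome 4, at chr4:136886201-136886450 and chr4:136892915-136893164, counted from RefSeq starts that differ from the gene ends given above.
C1qb: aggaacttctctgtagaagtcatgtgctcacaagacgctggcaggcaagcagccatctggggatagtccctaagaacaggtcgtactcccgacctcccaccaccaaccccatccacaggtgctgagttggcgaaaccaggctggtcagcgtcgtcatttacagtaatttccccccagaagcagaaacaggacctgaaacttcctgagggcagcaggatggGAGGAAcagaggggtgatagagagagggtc
C1qc: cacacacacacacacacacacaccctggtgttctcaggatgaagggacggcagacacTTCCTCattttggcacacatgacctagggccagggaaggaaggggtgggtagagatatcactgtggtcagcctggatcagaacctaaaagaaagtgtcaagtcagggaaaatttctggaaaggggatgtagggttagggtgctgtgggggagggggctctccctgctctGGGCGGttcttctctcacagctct
C1qb held GAGGAA at -30 to -25. C1qc held GGGCGG at -24 to -19 and GAGGAA on the opposite strand, written TTCCTC, at -193 to -188. Neither window held TATAAA.

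**Figure D2:**
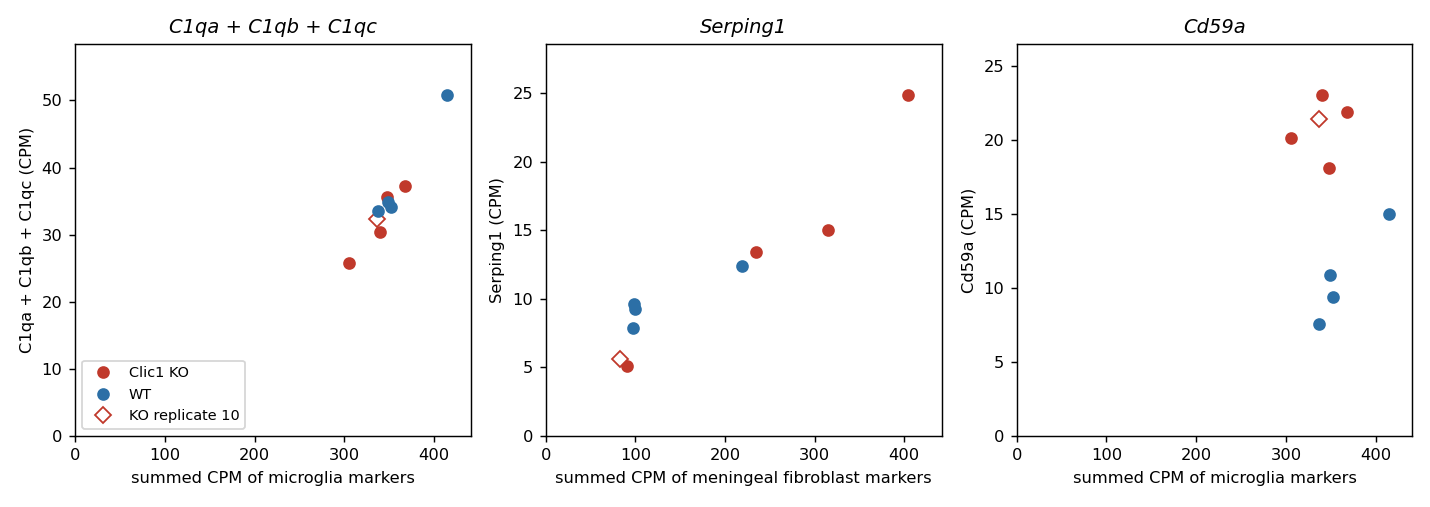
Normalized CPM of the C1q sum, Serping1 and Cd59a in each library (vertical axes) against the summed CPM of microglia or meningeal fibroblast markers (horizontal axes), with WT in blue, KO in red and KO replicate 10 as an open diamond. The C1q sum and Serping1 rise along their axes in the KO libraries, and in WT the rise rests on replicate 9. Cd59a is at 18.1 CPM or more in the KO libraries and 15.0 CPM or less in the WT libraries whose microglia sums overlap.

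C4b (ENSMUSG00000073418, chromosome 17, minus strand, 34728380 to 34743882) encodes complement component C4. Its level was 112, 116, 64.5, 104 and 102 CPM in KO replicates 2, 4, 6, 8 and 10, and 113, 76.7, 110.4 and 52.5 CPM in WT replicates 1, 3, 9 and 11. KO replicate 6 stood apart from the other KO libraries, and the WT libraries ran from 52.5 to 113 CPM, across most of the KO values. The means were 99.7 ± 20.5 CPM (SD, n = 5) and 88.1 ± 28.9 CPM (SD, n = 4), a log2 fold change of 0.21 (standard error 0.23). It was 0.20 without KO replicate 10 and ranged from -0.01 without WT replicate 11 to 0.36 without KO replicate 6. The C4a transcript matched that of C4b at 95.9% identity over 5378 nt. C4a was not among the genes with values, so reads divided between the copies could not be followed. C4b varied most like Krcc1, Rbbp9 and Slc12a7 (r = 0.94, 0.93 and 0.92, n = 9). Over the marker lists its r was highest with the summed ependymal cell markers, at 0.92, and next with the endothelium markers, at 0.78. C1qa also had r = 0.92 with the ependymal sum.

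C4b lies 0.306 Mb from Clic1, in the part of the MHC known as class III. Within 1 Mb of C4b, 78 other genes had values and 7 were past the threshold, against 0.286% of all genes. They were Clic1, Stk19 and Hspa1b with lower levels and Rps18, H2-K1, Hspa1a and Rgl2 with higher levels in KO mice. Hspa1a and Hspa1b are near-identical copies and Rps18 has near-identical pseudogenes, so the estimates of these 3 genes are uncertain. Stk19, 0.0801 Mb from C4b, had 18.2 ± 1.55 CPM (SD, n = 5) in the KO group and 33.0 ± 4.28 CPM (SD, n = 4) in the WT group. On the log2 scale it fell by 0.85 (standard error 0.11), with adjusted p = 0.00534 in limma, and it passed in 9 of 9 fits that each left out a mouse. C4b itself did not pass in any of those fits. A KO allele is carried on a stretch of chromosome from the line in which it was made, so the deletion and linked sequence differences cannot be told apart in this region. Around the other members no neighbour within 1 Mb passed, with 0 of 15 at Cd59a, 0 of 10 at Cd55, 0 of 27 at each C1q gene, 0 of 31 at C3 and 0 of 19 at Serping1.

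**Figure D3:**
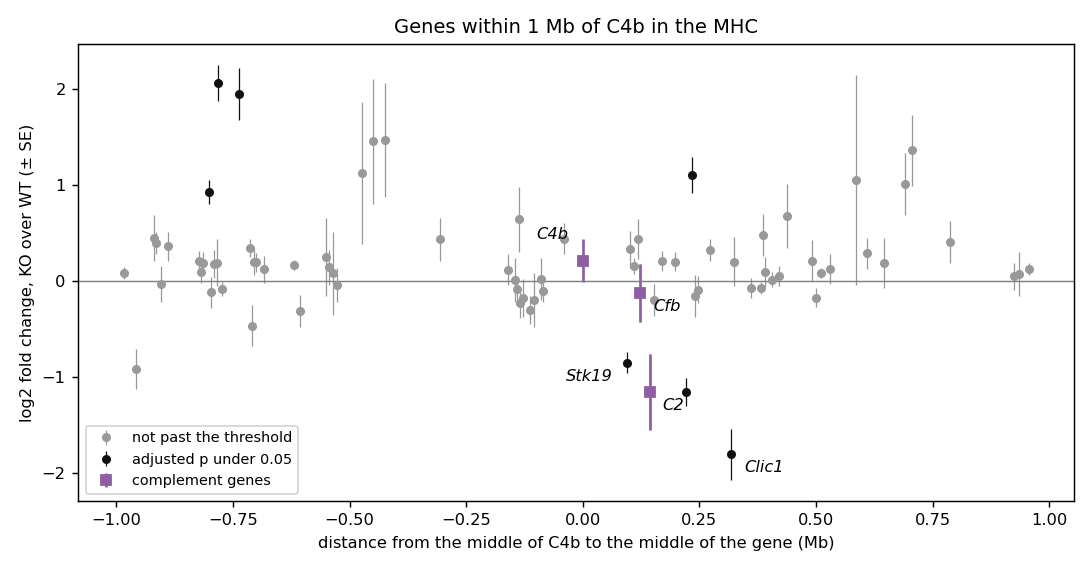
Log2 fold change, KO over WT, with 1 standard error, of each measured gene within 1 Mb of C4b, against the distance between gene middles in Mb, with genes past the threshold in black and complement genes as purple squares. C4b and Cfb sit near 0 at 0.21 and -0.12 while Stk19, C2 and Clic1 lie at -0.85, -1.16 and -1.80, and only Stk19 and Clic1 of these passed.

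C2 and Cfb lie in the same region, 0.152 and 0.187 Mb from Clic1. C2, the protease that joins C4 in the classical enzyme, was named after its values were seen, as the only complement gene besides Cd59a whose groups did not overlap. It was at 2.96, 3.95, 0.733, 3.44 and 3.07 CPM in KO replicates 2, 4, 6, 8 and 10, and 5.43, 6.22, 6.50 and 4.68 CPM in WT replicates 1, 3, 9 and 11. All KO libraries were below all WT libraries, which was true in either direction of 3.41% of all genes. Its log2 fold change of -1.16 (standard error 0.39) had adjusted p = 0.589 in limma. It was -0.75 without KO replicate 6 and -1.23 without KO replicate 10 (adjusted p = 0.233 in limma). C2 overlaps the readthrough gene Gm20547 on its own strand and Zbtb12 on the opposite strand. Zbtb12 itself differed by -0.19 on the log2 scale (standard error 0.16). Cfb, the matching protease of the alternative pathway, had a log2 fold change of -0.12.

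C3 (ENSMUSG00000024164, chromosome 17, minus strand, 57203970 to 57228136) encodes the protein on which all the pathways meet. It is on the chromosome of Clic1 but 22.1 Mb away. Its level was 5.15, 7.64, 6.78, 6.41 and 9.50 CPM in KO replicates 2, 4, 6, 8 and 10, and 10.9, 6.22, 7.40 and 5.92 CPM in WT replicates 1, 3, 9 and 11. The lowest library was a KO and the highest a WT library, and KO replicate 10 was the highest of the KO libraries. The means were 7.10 ± 1.61 CPM (SD, n = 5) and 7.62 ± 2.30 CPM (SD, n = 4), a log2 fold change of -0.09 (standard error 0.21). It was 0.02 without KO replicate 2, 0.10 without WT replicate 1 and -0.20 without KO replicate 10. Over the 9 libraries, C3 had r = -0.93 with the summed oligodendrocyte markers and r = -0.71 with Cd55. These are the r of largest size over the marker lists and over the complement genes, picked after they were seen.

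Serping1 (ENSMUSG00000023224, chromosome 2, minus strand, 84765387 to 84775444) was the most variable of the 8 genes, with a highest library 4.85 times the lowest. Its level was 13.4, 15.0, 5.13, 24.9 and 5.59 CPM in KO replicates 2, 4, 6, 8 and 10, and 9.59, 7.87, 12.4 and 9.23 CPM in WT replicates 1, 3, 9 and 11. The KO libraries held both the highest and the lowest levels, and all WT libraries lay between them. The means were 12.8 ± 8.09 CPM (SD, n = 5) and 9.77 ± 1.90 CPM (SD, n = 4), a log2 fold change of 0.16 (standard error 0.40). It was 0.39 without KO replicate 10 and 0.55 with that library as WT, but 0.04 without KO replicate 4, -0.14 without KO replicate 8 and 0.01 with voom on estimated reads.

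The Serping1 level moved with RNA of meningeal fibroblasts. All 8 of their markers had values, led by Igf2 and Dcn. Their sum was 234, 315, 90.3, 405 and 82.4 CPM in KO replicates 2, 4, 6, 8 and 10, and 97.9, 97.0, 219 and 98.9 CPM in WT replicates 1, 3, 9 and 11. The KO libraries with high Serping1 were those with a high marker sum, and r was 0.95 over the 9 libraries and 0.94 without KO replicate 10 (n = 8). All 8 markers had a higher mean CPM in KO mice and none was past the threshold. On the log2 scale 7 of the fold changes lay above 0 and 1 below. KO replicates 6 and 10 had the lowest marker sums of all libraries. Per unit of the marker sum, Serping1 was 4.77% to 6.78% in KO libraries, against 5.66% to 9.79% in WT. Serping1 also had r = 0.81 with the summed perivascular macrophage markers and 0.68 with the endothelium markers (n = 9). Without KO replicate 10 these r were 0.86 and 0.90 (n = 8), so its covariation is not particular to meningeal fibroblasts. Vtn and Colec12, which encode the regulator vitronectin and a collectin, varied with Serping1 at r = 0.90 and 0.88 (n = 9). Their log2 fold changes were 0.30 and 0.32, each with an adjusted p above 0.05 in limma. The part of meningeal content in these differences was not tested.

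The levels of the 8 genes relative to each other were compared per kb of the longest coding transcript. In WT mice the order was C4b at 16.4 ± 5.37 CPM per kb, C1qb at 12.7 ± 3.33, C1qa at 12.3 ± 3.13, C1qc at 9.66 ± 1.64, Cd59a at 5.93 ± 1.75, Serping1 at 5.53 ± 1.07, Cd55 at 3.23 ± 0.781 and C3 at 1.48 ± 0.449 CPM per kb (SD, n = 4). Neighbours in this order overlapped over the libraries, except that Serping1 was above Cd55 and Cd55 above C3 in every library. In KO mice Cd59a was at 11.6 ± 1.04 CPM per kb (SD, n = 5), rank 2 in place of 5, between C4b at 18.5 ± 3.80 and C1qa at 10.7 ± 1.98. C1qb, C1qc and Serping1 followed at 10.4 ± 1.69, 8.16 ± 1.76 and 7.24 ± 4.57, then Cd55 at 3.06 ± 0.882 and C3 at 1.38 ± 0.314. Among neighbours in the KO order, ranges did not overlap between Cd55 and C3 alone.

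**Figure D4:**
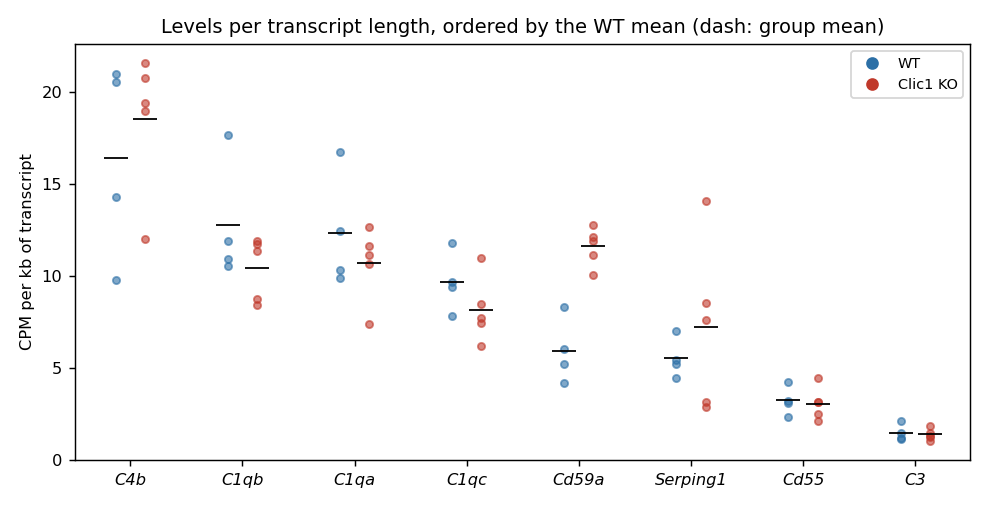
CPM per kb of transcript of the 8 genes in each library, WT in blue and KO in red, ordered by the WT mean, with a dash at each group mean. C4b is highest and C3 lowest in both groups, and Cd59a moves from a mean of 5.93 in WT to 11.6 CPM per kb in KO mice.

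The pathway as a whole was followed with lists of 65 genes by role, of which 32 had values, the 8 members included. Cd59a was past the threshold and no other gene was, with 11 log2 fold changes above 0, 21 below and a median of -0.08. Over all 14351 genes, 7229 lay above 0 and 7122 below. The lean below 0 among the complement genes was not tested. Without the members, 0 of 24 passed in limma, with adjusted p between 0.589 and 0.996, and 1 of them, C2, had an unadjusted p under 0.05, against 6.5% of all genes. With sample weights in limma, Cd93 passed as well.

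Among the genes that start the classical and lectin pathways, 9 of 20 had values, 0 passed and the median log2 fold change was -0.15. Colec12, C4b and Masp1 were the most abundant in CPM, and Masp1, a lectin pathway protease, had a log2 fold change of -0.15. Of C3 and the alternative pathway, 3 of 4 had values and 0 passed, with Cfp, which encodes properdin, at -0.17. None of the 7 listed genes of the terminal pathway, whose products build the pore that Cd59a blocks, had values.

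Regulators had values for 14 of 24 genes, of which Cd59a passed. The most abundant were Clu and Csmd3. Clu, which encodes clusterin, had 659.8 ± 43.6 CPM (SD, n = 5) in the KO and 703 ± 47.2 CPM (SD, n = 4) in the WT group, a log2 fold change of -0.09. Csmd3 was also at -0.09. The membrane regulators Cd46 and Cr1l, which act on C3 and C4 fragments as Cd55 does on the enzymes, were at 0.11 and 0.01. No membrane regulator other than Cd59a was past the threshold. Of the genes listed as receptors, 6 of 10 had values and 0 passed, with Calr and C1qbp, the most abundant of the list, at 0.03 and -0.03. The receptor for the C3a fragment, C3ar1, was at -0.40, and Itgam and Itgb2, which together form complement receptor 3 of microglia, were at -0.07 and -0.42.

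**Figure D5:**
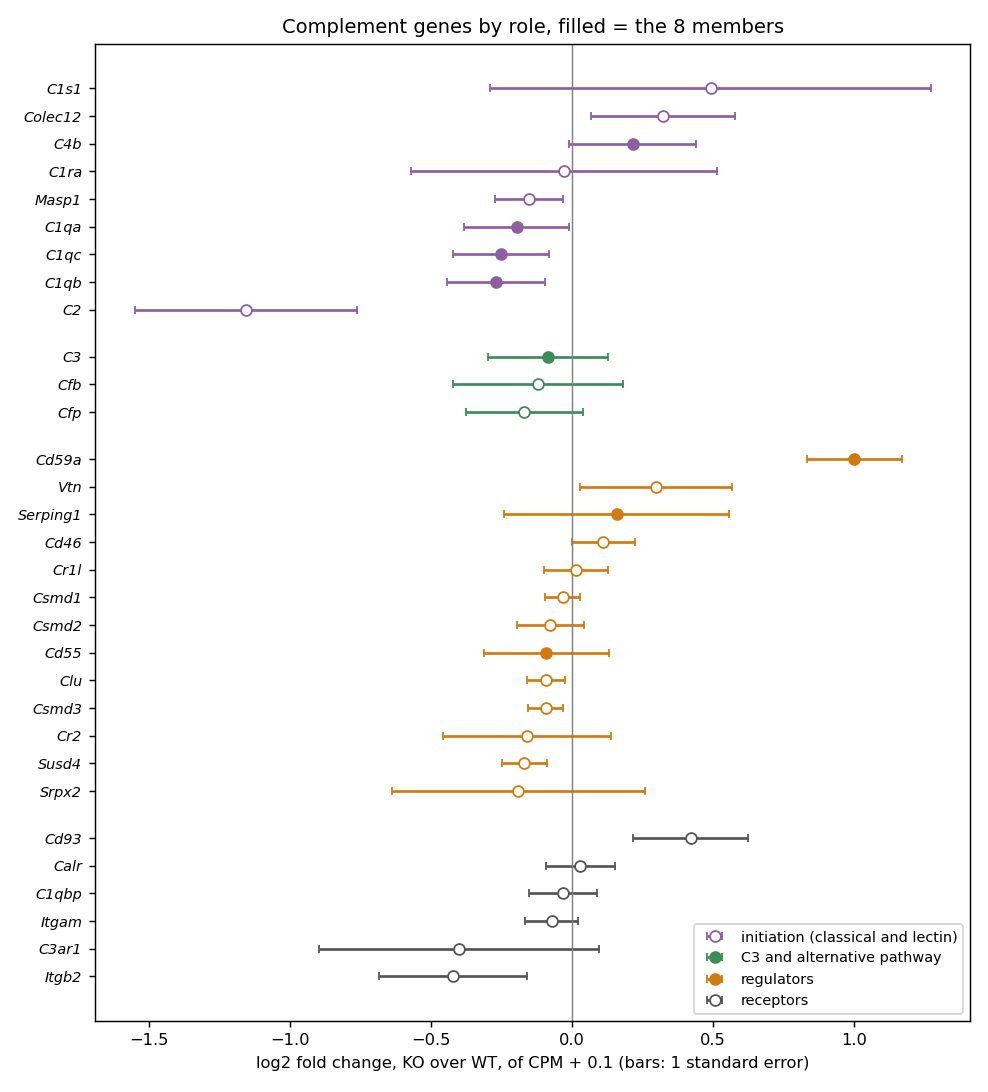
Log2 fold change, KO over WT, of log2(CPM + 0.1) with 1 standard error for measured complement genes, grouped by role, with the 8 members filled and 1 of the 32 genes left out. Cd59a at 1.0 and C2 at -1.16 are the points farthest from 0, and of these Cd59a alone was past the threshold.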

How the data were processed

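RNA of hypothalamus from 5 Clic1 KO and 4 WT mice was analysed. The authors checked reads with FastQC 0.11.8, trimmed them with Trimmomatic 0.38, aligned them with STAR 2.5.1a to GRCm38.p6, estimated gene counts with RSEM 1.3.0 (Ensembl 98), kept genes with a CPM of at least 1 in at least 5 samples and applied edgeR TMM normalization. The values are the authors' deposited signal, CPM after TMM. Of values up to 2.5 CPM, 81.3% to 86.6% per library lay within 0.03 of whole reads, so no count test was run. There was 1 column of values that matched no sample, which was not used. The deposited limma-voom comparison (fold changes and p-values) was not used.

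Here log2(CPM + 0.1) was fitted with limma 3.58.1 in R 4.3.3 (trend, condition only) with Benjamini-Hochberg adjustment over 14351 genes. Correlations used log2(CPM + 0.1) after the group means were subtracted. Permutation tests were exact (scipy 1.17.1). The limma step was first tested on simulated data. Positions and transcript lengths came from GENCODE M21, transcript matches from blastn 2.17.0 and promoters from RefSeq. Members, gene lists and the rule for named genes were chosen with earlier results of these data known. Named were the members, complement genes past the threshold, the most abundant 2 of each list, genes past the threshold within 1 Mb of a member and the 3 genes most like Cd59a, C1qa and C4b. Other complement genes were named after their values were seen. Alternatives were other pseudocounts, filters, scalings, variance models, sample weights, estimated reads with voom, another threshold, other windows, replicate 10 as WT and each replicate left out. Values of 1 complement gene and of 1 cell type marker are not reported singly here.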

Additional observations from a re-analysis of the deposited data

Results flagged for a closer look

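Over the measured complement genes and Clic1, 5 of 66 groups held 1 library far from the others of its group by Dixon's criterion, where chance gives about 1 in 20. C4b was at 64.5 CPM in KO replicate 6, and the remaining KO libraries at 102 to 116 CPM. Colec12 was at 22.7 CPM in WT replicate 9, against 15.0 to 15.6 CPM in the other WT libraries. Susd4, a membrane protein with complement control domains, was at 133.8 CPM in WT replicate 3, against 144 to 146 CPM. KO replicate 10, the library with conflicting labels, stood apart for a pair of genes of the receptor list. Cd93 was at 7.47 CPM in it with the remaining KO libraries at 12.9 to 15.0 CPM, and without it the log2 fold change of Cd93 was 0.59 in place of 0.42 (adjusted p = 0.0835 from limma). Calr was at 377 CPM in it with the remaining KO libraries at 240 to 254 CPM.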

How the results depend on the processing

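The log2 fold changes of the 8 genes were recomputed under 19 alternatives each, 152 values in all, and each stayed within 1 SD of its reported value. That SD is the spread of the log2 levels over libraries within the groups, from 0.27 for C1qc to 0.75 for Serping1. Leaving out 1 mouse cannot move a fold change that far, and the variance models and the filter left it unchanged. For these alternatives the outcome was fixed in advance and says nothing about stability. In 8 of the 152 values the sign differed, 4 for Cd55, 2 for C3, 1 for C4b and 1 for Serping1, and in none for Cd59a, whose values lay between 0.78 and 1.17. The count of all genes past the threshold was 41, and it was 27 over genes averaging 5 CPM or more, 135 with sample weights, 5 with replicate 10 as WT and 18 to 87 with each replicate left out. The count among the 8 genes was 1, and it was 0 without the variance trend and 0 with replicate 10 as WT. With each replicate left out in turn, it was 1 in 2 of 9 fits and 0 in the other 7. For all measured complement genes it was 1, and it was 0 without the trend, 2 with sample weights (Cd59a and Cd93) and 0 with replicate 10 as WT. With each replicate left out it was 1 in those same 2 fits, from Cd59a, and 0 in the others. Among the neighbours of C4b, 7 passed within 1 Mb, 4 within 0.5 Mb and 11 within 2 Mb. Between C1qb and C1qc, r was 0.52, and 0.84 without KO replicate 10. The causes were not tested. Summing members with their copies C4a, Cd59b and Cd55b was not run, since the copies had no values. The groups share no replicate numbers, and these numbers do not say which mice shared a litter, so no paired analysis was run. Libraries of 5.45 to 20.8 M estimated reads limit the precision of genes at a few CPM, such as C2 and C3.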
